A study of Mus musculus with 91 samples.

Results

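The single-injection arm of the restimulation experiment compared splenic regulatory T cells (Tregs) of mice given PBS and then 1 dose of FP with those of mice given PBS and then PBS again. FP is a fusion of mouse IL-2 to CD25, the alpha chain of its own receptor, given here at 20 ug, and the control injection was 100 uL of PBS. The members are the 6 libraries that the sample titles and the column names of 1 deposited table place in these groups, 3 single FP and 3 PBS, out of 91 samples in the series. All mice were C57/BL6 animals labelled RFP-FoxP3+, a red fluorescent reporter for the Treg factor Foxp3, and every library was made 1.5 h after the last injection. Neither the age of the mice nor the interval between the injections was given in the sources used here. The same table held 4 libraries of mice given FP and then FP again (repeated FP), which entered the model fit and are otherwise mentioned only beside a result. A separate table, called the 1.5 h table below, held 4 PBS and 4 FP libraries. They were of the same strain, dose and time without a prior PBS injection. Their sample names carry other dates than the restimulation libraries, and 1 of these FP libraries carries a later date than the rest of its table. Single library 1 lacked the rise of Cish and Il2ra that the other single libraries showed, and this was known beforehand. The counts of called genes are therefore given with it and without it. Where a gene has only 1 log2 change or adjusted p, it is from all libraries unless stated.

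IL-2 is the cytokine on which Tregs depend. It binds a receptor of CD25 (Il2ra), CD122 (Il2rb) and the common gamma chain (Il2rg), whose kinases JAK1 and JAK3 phosphorylate STAT5, and STAT5 switches on a set of early genes that includes its own feedback inhibitors Cish and the Socs genes, the receptor gene Il2ra, and survival and growth genes such as Bcl2 and Myc. Tregs carry much CD25 and little IL-2 of their own, which is why they respond to low amounts of the cytokine.

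Depth was 29995131 to 46108114 counted reads in the 6 libraries. No pair of single libraries repeated another. The closest were single 2 and 3 with a chi-square of 5.51 per degree of freedom, where sampling noise alone gives about 1. Single 2 and 3 were much more alike than other pairs. Single 1 gave 76.5 and 78.2 against them, and the PBS pairs gave 29.2, 81.5 and 166. The sort matched its label: Foxp3 lay between 521 and 852 CPM (counts scaled to library size) and Cd3e between 642 and 846 CPM in the 6 libraries, against 1.28 to 2.63 CPM for Cd8a, a gene of cytotoxic T cells. In the myeloid list 14 of 20 markers were in the table and summed to 160 to 313 CPM in PBS and 285 to 313 CPM in single FP. The 14 of 17 B cell markers summed to 542 to 627 CPM in PBS and 458 to 673 CPM in single FP, mostly Ighm. No marker in the table was at 0 in these libraries, and the part of these cells in the results below was not tested. Libraries also differed in how AT-rich genes stood against GC-rich genes: the median log2 level of genes under 43.5% GC minus that of genes over 55% GC, relative to the mean library, was 0.235, 0.634 and -0.345 in PBS 1 to 3 and -0.0964, 0.386 and 0.468 in single 1 to 3. Mitochondrially encoded genes held 0.991, 1.07 and 0.574% of the reads in PBS 1 to 3 and 0.646, 0.988 and 0.98% in single 1 to 3. PBS 3 and single 1 were thus the lowest. In these bulk samples, fewer cells of a type and less RNA per cell cannot be told apart.

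Across all 3 single libraries, 2 genes passed the test, both lower after FP: Fos and Fosb, the immediate early genes that encode subunits of the AP-1 transcription factor. These 2 made up 0.0111% of the 17953 genes tested with edgeR's quasi-likelihood test at a Benjamini-Hochberg adjusted p below 0.01, no gene passed as higher, and 1608 genes had an unadjusted p below 0.05. Fos (chr12:85473890-85477273 on GRCm38) stood at 75.8, 65.5 and 85.6 CPM in PBS 1 to 3 and at 18.9, 18.2 and 19.3 CPM in single 1 to 3. The groups did not overlap and the 3 single values were nearly equal, a mean 4.01-fold below PBS (log2 change -2.005, SE 0.15, adjusted p = 0.000998). Fosb (chr7:19302696-19310051) stood at 77.5, 67.6 and 91.2 CPM in PBS and at 8.56, 5.54 and 5.99 CPM after single FP, 11.8-fold lower (log2 change -3.55, SE 0.21, adjusted p = 0.000176). For both genes single library 1 lay with single 2 and 3, and without it the log2 changes were -2.01 and -3.77. Fos lost its call without single 2 or without single 3 (adjusted p = 0.0161 and 0.0134), whereas Fosb passed with any 1 library left out. With the replicate number as a block neither passed (adjusted p = 0.161 for Fos and 0.0334 for Fosb). With a correction for GC content, added after the data were seen, both passed at adjusted p = 1.98e-06 and 7.93e-07, among 13 genes called (0.0724% of those tested), 11 lower (0.0613%) and 2 higher (0.0111%). Without single 1 that correction gave 154 calls (0.858%), 114 higher (0.635%) and 40 lower (0.223%).

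The promoters of the pair are shown because they were the only genes called over all 3 single libraries. Each line gives the 250 bases before the RefSeq start on GRCm38.p6, with every TGACG on either strand, the core of the cyclic AMP response element, in capitals. The Fos window is chr12:85473640-85473889 on the plus strand and the Fosb window is chr7:19310046-19310295 on the minus strand.
Fos: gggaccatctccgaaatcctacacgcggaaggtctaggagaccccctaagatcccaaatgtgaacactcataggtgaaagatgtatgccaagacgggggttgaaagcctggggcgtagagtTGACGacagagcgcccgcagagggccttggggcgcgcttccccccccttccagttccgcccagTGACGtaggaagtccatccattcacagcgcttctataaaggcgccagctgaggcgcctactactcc
Fosb: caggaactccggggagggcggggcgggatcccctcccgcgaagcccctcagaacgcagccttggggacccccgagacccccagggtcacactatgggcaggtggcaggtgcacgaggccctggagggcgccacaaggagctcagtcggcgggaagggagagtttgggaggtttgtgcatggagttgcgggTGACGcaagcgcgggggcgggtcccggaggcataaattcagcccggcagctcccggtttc
Fos held 2 matches and Fosb held 1. TGACG on either strand, which also counts any full TGACGTCA, occurred in 17.8% of 32851 promoter windows of this length, so a match is common and is a description only.

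In the 1.5 h table the same dose left both genes without a called change, at a log2 change of 0.27 (SE 0.56) for Fos and 0.20 (SE 0.71) for Fosb. The test of the difference between the 2 tables gave -2.27 (SE 0.73, adjusted p = 0.269) for Fos and -3.75 (SE 0.97, adjusted p = 0.13) for Fosb, and neither passed. In repeated FP, Fos ranged from 76.7 to 108 CPM and Fosb from 31.5 to 45.03 CPM, against the same 3 PBS libraries. Other immediate early genes were lower in value without passing: Egr3, a zinc finger transcription factor induced by antigen receptor signalling, had 30, 23.3 and 34.1 CPM in PBS against 20.9, 14.9 and 13.6 CPM in single FP (log2 change -0.82, SE 0.23, adjusted p = 0.213). Jun, the partner of Fos in AP-1, was at 80.3, 70.8 and 93.1 CPM in PBS and 62.8, 56.4 and 61 CPM in single FP (adjusted p = 0.464). Of the 25 measured members of the immediate early and handling stress list, 2 passed as lower, 7 lay below all PBS libraries in all 3 single libraries (28%, against 8.38% of all genes), and 2 lay above them (8%, against 6.51%).

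These last 2 were Hspa1a and Hspa1b, which encode the stress-inducible heat shock protein HSP70. Hspa1b (chr17:34956436-34959238) was at 0.248, 0.613 and 1.33 CPM in PBS and at 50, 18.4 and 8.78 CPM in single 1 to 3. Hspa1a (chr17:34969190-34972156) was at 0, 0.123 and 0.233 CPM in PBS and at 10.8, 3.8 and 1.18 CPM in single 1 to 3. For both genes the groups did not overlap and single 1 was highest, but the spread within single FP was wide and neither passed (log2 change 5.11, SE 0.96, adjusted p = 0.0678 for Hspa1b and 5.35, SE 1.17, adjusted p = 0.106 for Hspa1a). In the 1.5 h table both were lower in value after FP without a call, at -1.33 (SE 0.89) for Hspa1b and -1.72 (SE 1.08) for Hspa1a. The PBS libraries of that table had a mean of 3.99 CPM of Hspa1b with a standard deviation of 5.29. The pair share most of their sequence, so reads may have been split between them, and their promoter windows differ at 3 of 250 bases. The Hspa1b window (chr17:34959239-34959488, minus strand) is shown with its single GAANNTTC, the core of a heat shock element, in capitals.
Hspa1b: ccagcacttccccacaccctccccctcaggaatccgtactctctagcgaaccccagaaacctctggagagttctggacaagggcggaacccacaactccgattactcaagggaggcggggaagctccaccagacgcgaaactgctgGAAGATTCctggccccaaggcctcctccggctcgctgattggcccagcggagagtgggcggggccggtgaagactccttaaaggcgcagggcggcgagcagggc
GAANNTTC, which reads the same on both strands, occurred in 6.69% of all windows. In a heat shock list added after the data were seen, this pair were the only 2 of 17 measured genes above all PBS libraries in all 3 single libraries (11.8%, against 6.51% of all genes), and none lay below (against 8.38%). Single 1 was above all PBS libraries in 47.1% of the list, against 23.2% of all genes, with Hsph1 spread from 51 to 460 CPM within PBS alone. Over the whole list PBS 3 stood as high as single 1, with a median log2 difference from PBS of 0.747 against 0.703. This median was -0.574 and -0.0499 in PBS 1 and 2, and -0.14 and -0.242 in single 2 and 3.

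At an adjusted p below 0.05, 60 genes passed (0.334% of those tested), 57 lower (0.317%) and 3 higher (0.0167%). The 3 higher genes, named after their values were seen, were Klf9, Slc22a5 and Zfp1. Klf9, a Kruppel-like transcription factor that responds to glucocorticoids, had 9.11, 10.1 and 11.9 CPM in PBS and 22.4, 27.7 and 28.5 CPM in single FP (log2 change 1.34, SE 0.15, adjusted p = 0.0121). Slc22a5, the carnitine transporter, had 29.7, 32.4 and 34.9 CPM in PBS and 65, 56.7 and 74.8 CPM in single FP (log2 change 1.02, SE 0.13, adjusted p = 0.0206). In both genes single library 1 was above every PBS library, as single 2 and 3 were. The 57 lower genes were mostly scarce, with 37 of them under a mean of 5 CPM in PBS. Their median log2 difference from PBS was -1.51 in single FP, where they were selected, and -1 in repeated FP against the same PBS libraries. Of the 60 genes, 58 were measured in the 1.5 h table and 1 was called there at an adjusted p below 0.01, where 6.67% of all genes were called.

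**Figure D1:**
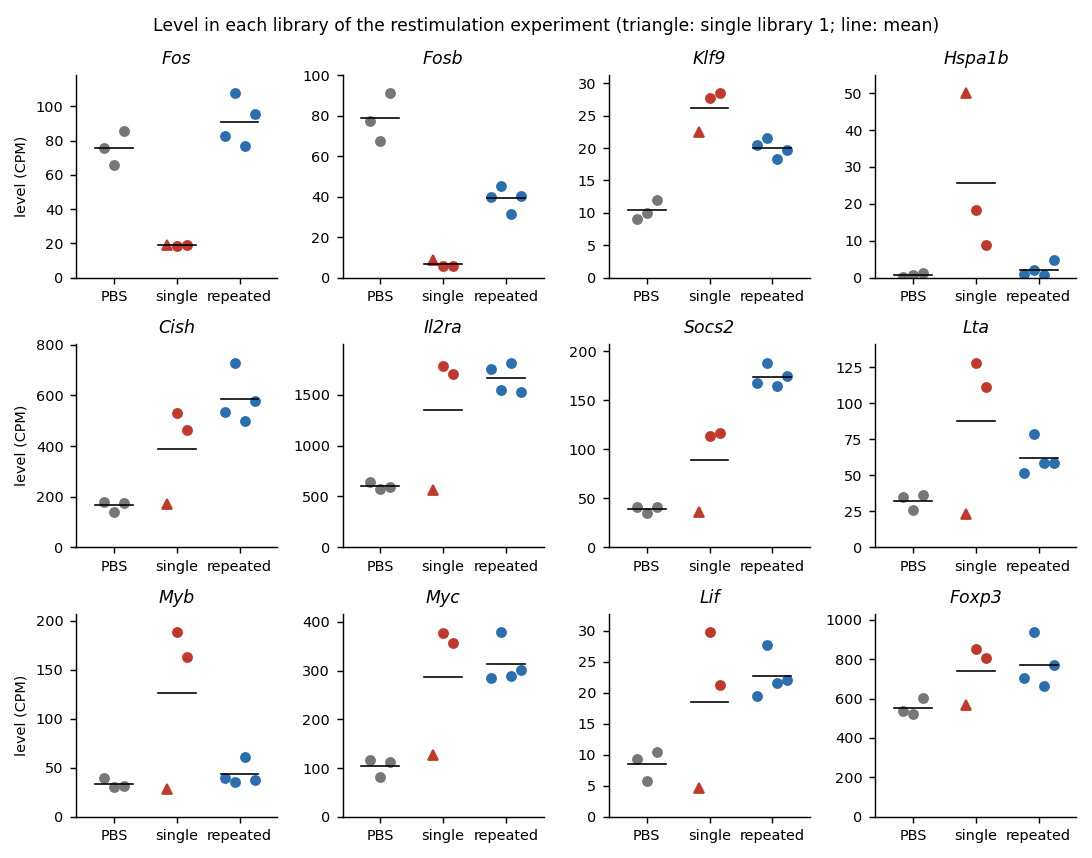
Levels in CPM (linear axes from 0) of 12 genes in each restimulation library; points are libraries, the triangle is single library 1 and the line is the group mean. Against PBS, Fos and Fosb are low and Klf9 and Hspa1b high in all 3 single libraries. The genes in the middle and bottom rows are above PBS in single 2 and 3 and near or below PBS in single 1. In Cish and Foxp3 the highest library is 1 of repeated FP (730 and 937 CPM), but the repeated FP and single FP libraries overlap in both genes.

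Several genes of the IL-2 receptor and its JAK-STAT5 pathway showed a second pattern, in which single 2 and 3 stood apart from PBS and single 1 did not. Single 2 and 3 were above all PBS libraries in 18 of the 30 measured genes (60%, against 16% of all genes), and all 3 single libraries were in 8 (26.7%, against 6.51%). Single 1 was above all PBS libraries in 40% of the list (23.2% of all genes) and within the PBS range in 46.7% (57.5% of all genes). Of 30 measured genes of this list, none was called over all 3 single libraries and 5 were called higher without single 1 (Il2ra, Cish, Socs2, Lta and Myc), against 27 of 17953 genes called higher in that fit (0.15%). The median log2 change over the list was 0.48 with all libraries and 0.53 without single 1, against 0.0026 and 0.0013 over all genes tested. Because single 1 was set apart with its Cish and Il2ra values known, the fit without it describes these genes and tests nothing about them.

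Among the receptor chains, Il2ra (chr2:11642807-11693193), which encodes CD25, had 639, 569 and 593 CPM in PBS. It had 566, 1785 and 1708 CPM in single 1 to 3. Single 1 lay just below the lowest PBS library and the other pair was 2.91-fold above the PBS mean, so the change over all 3 was 1.17 on the log2 scale with a standard error of 0.34 (95% interval 0.42 to 1.93, adjusted p = 0.222). Without single 1 it was 1.54 (SE 0.13, adjusted p = 0.00287). Il2rb was above PBS in all 3 single libraries, at 1132, 1474 and 1389 CPM against 757, 698 and 966 CPM, without passing (log2 change 0.72, adjusted p = 0.165). Il2rg, the common gamma chain, ranged from 204 to 262 CPM in PBS and from 203 to 240 CPM in single FP, so the groups overlapped. Of the signalling genes, Jak3 was at 200 to 238 CPM in PBS and at 326, 264 and 251 CPM in single 1 to 3, and Stat5a and Stat5b did not pass (log2 change -0.17 and -0.10).

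The feedback inhibitors followed Il2ra with 1 exception. Cish (chr9:107296026-107302784), the SH2 protein that STAT5 induces, had 180, 140 and 177 CPM in PBS and 170, 530 and 464 CPM in single 1 to 3. Its log2 change was 1.23 over all 3 libraries (SE 0.35, 95% interval 0.46 to 2.00, adjusted p = 0.213) and 1.59 without single 1 (SE 0.19, adjusted p = 0.00845). Socs2, another SH2 inhibitor of cytokine signalling, had 41.4, 35.1 and 40.8 CPM in PBS and 35.5, 114 and 117 CPM in single FP. Socs1, which blocks JAK kinases directly, had 59.6, 45.2 and 60.3 CPM in PBS and 60.4, 140 and 125 CPM in single FP. In these 3 genes single 1 was within or at the edge of the PBS range. Socs3, the inhibitor best known downstream of STAT3, differed: it had 135, 138 and 131 CPM in PBS and 294, 216 and 232 CPM in single FP. All 3 single libraries were above PBS and single 1 was the highest (log2 change 0.88, SE 0.19, adjusted p = 0.103).

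Among the target genes, Lta, which encodes lymphotoxin alpha, had 35.1, 25.6 and 36.1 CPM in PBS and 22.9, 128 and 111 CPM in single 1 to 3 (log2 change 1.44, SE 0.48, adjusted p = 0.322 with all libraries and 1.89, SE 0.21, adjusted p = 0.00614 without single 1). Single 1 was below the lowest PBS library and the other pair 3.71-fold above the PBS mean. Lif, a cytokine that signals through gp130, had 9.29, 5.74 and 10.5 CPM in PBS and 4.69, 29.8 and 21.2 CPM in single FP. Bcl2, the survival protein, had 294, 281 and 225 CPM in PBS and 304, 601 and 659 CPM in single FP. Lrrc32, which encodes the TGF-beta carrier GARP of activated Tregs, had 366, 243 and 348 CPM in PBS and 252, 986 and 890 CPM in single FP. In Lif and Lrrc32, as in Lta, single 1 was within or below the PBS range, and without single 1 neither passed at 0.01 (adjusted p = 0.0367 and 0.018). Gzmb, which encodes granzyme B, was at 3.02 to 7.50 CPM in PBS and 5.92 to 6.36 CPM in single FP, all within the PBS range.

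Promoter windows were at hand for 3 of the 5 pathway genes called without single 1 (Il2ra, Cish and Lta), and were searched for TTCNNNGAA, the spaced palindrome that STAT proteins bind. Lta was the one with a match and is shown for that reason (chr17:35205352-35205601, minus strand), with its 2 matches in capitals.
Lta: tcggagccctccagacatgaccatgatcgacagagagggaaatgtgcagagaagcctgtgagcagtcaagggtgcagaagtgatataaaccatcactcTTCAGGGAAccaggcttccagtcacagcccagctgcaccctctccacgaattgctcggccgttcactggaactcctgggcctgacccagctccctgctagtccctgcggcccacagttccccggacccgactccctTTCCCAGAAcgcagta
TTCNNNGAA reads the same on both strands and occurred in 7.02% of all windows. The windows of Il2ra and Cish do not hold these letters, which says nothing of sites elsewhere.

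Without single 1, 31 genes were called (0.173% of those tested), 27 higher (0.15%) and 4 lower (0.0223%), and at an adjusted p below 0.05 it was 152 (0.847%), 88 higher (0.49%) and 64 lower (0.356%). The 4 lower genes, named after their values were seen, were Fos, Fosb and the predicted genes Gm37352 and Gm26887. Among the 27 higher genes, Myb, a transcription factor of lymphoid precursors, had 39.4, 30.4 and 31.8 CPM in PBS and 28.4, 188 and 162 CPM in single 1 to 3. Myc, the driver of growth and ribosome production, had 116, 81 and 113 CPM in PBS and 127, 377 and 356 CPM in single FP. Nfkbiz, an atypical inhibitor of NF-kappaB, had 194, 205 and 186 CPM in PBS and 252, 622 and 617 CPM in single FP. In these 3 genes single 2 and 3 were far above PBS, and single 1 was below the PBS range for Myb and slightly above it for Myc and Nfkbiz. Rragd, a GTPase that carries amino acid signals to mTORC1, had 22.3, 24.1 and 27.4 CPM in PBS and 31.2, 103 and 92.6 CPM in single FP. Adam19, Jaml and Map3k8 were called higher as well, with log2 changes of 1.56, 2.27 and 1.61 without single 1. In all 27, single 2 and 3 were both above single 1, as their selection favours. Single 1 was at or below the highest PBS library in 11 of them. In the rest, the larger part of the 27, single 1 was above every PBS library, as it was in 23.2% of all genes. Its median over the 27 was 0.169 above the PBS mean on the log2 scale, against 1.68 and 1.66 in single 2 and 3.

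The fit without single 1 is itself fragile. Leaving out any further library of either group left 0 to 2 genes, and the fit on the 2 single and 3 PBS libraries alone called 0, with 2376 genes at an unadjusted p below 0.05.

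Genes chosen in the 1.5 h table gave a view of each single library that rested on other mice. There, FP changed 1110 of 16643 genes (6.67%), 730 higher (4.39%) and 380 lower (2.28%) at the same threshold, of which 728 and 380 were measured in the restimulation table. Over the 728, the median log2 difference from the mean of the 3 PBS libraries was 0.039 in single 1, 0.454 in single 2 and 0.417 in single 3, against -0.122 to 0.102 in the PBS libraries themselves. Over the 380, it was 0.0572 in single 1, -0.329 in single 2 and -0.266 in single 3. Over all genes tested it was 0.0081 to 0.0299 in the 3 single libraries. Single 2 and 3 were thus displaced in the direction of the 1.5 h table on both sets, and single 1 lay within the PBS values on the first and slightly above them on the second.

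Gene by gene, single 2 and 3 were both above all PBS libraries in 542 of the 728 genes, or 74.5%, against 16% of all genes tested, and in 387 of them single 1 was not above the highest PBS library, a pattern found in 9.52% of all genes. Both were below all PBS libraries in 223 of the 380 genes, or 58.7%, against 17.5% of all genes, and in 184 of them single 1 was not below the lowest PBS library, a pattern found in 9.13% of all genes. Single 1 was above all PBS libraries in 23.5% of the 728 and 32.9% of the 380, against 23.2% of all genes. Single 1 was within the PBS range in 62.4% of the 728 and 53.7% of the 380, against 57.5% of all genes. Over the 1108 genes together, the sign of the difference from PBS matched the 1.5 h table in 569 genes (51.4%) for single 1, 1028 (92.8%) for single 2 and 963 (86.9%) for single 3. Across these genes, which are not independent replicates, Pearson's r with the 1.5 h change was -0.0376, 0.839 and 0.777, and the fitted slopes were -0.0149, 0.605 and 0.532. The 3 single libraries share their PBS reference in these values, and the 1.5 h table shares no library with them.

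**Figure D2:**
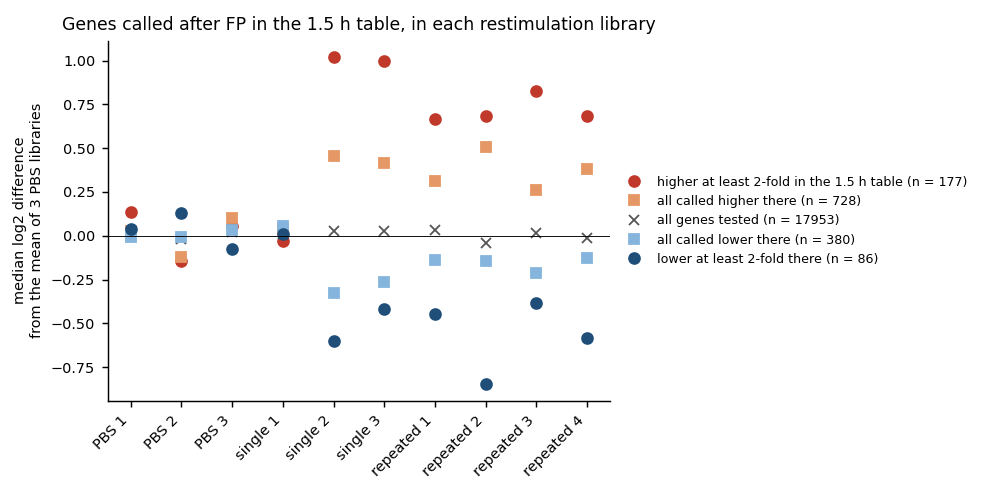
Median log2 difference from the mean of the 3 PBS libraries (y axis) in each restimulation library (x axis), over the gene sets called in the 1.5 h table and over all genes tested. Single 1 lies among the PBS libraries on each set except the 380 lowered genes, where it is at 0.0572 and the highest PBS library at 0.0313, and single 2 and 3 reach 1.02 and 1.00 on the 177 genes at least 2-fold higher.

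**Figure D3:**
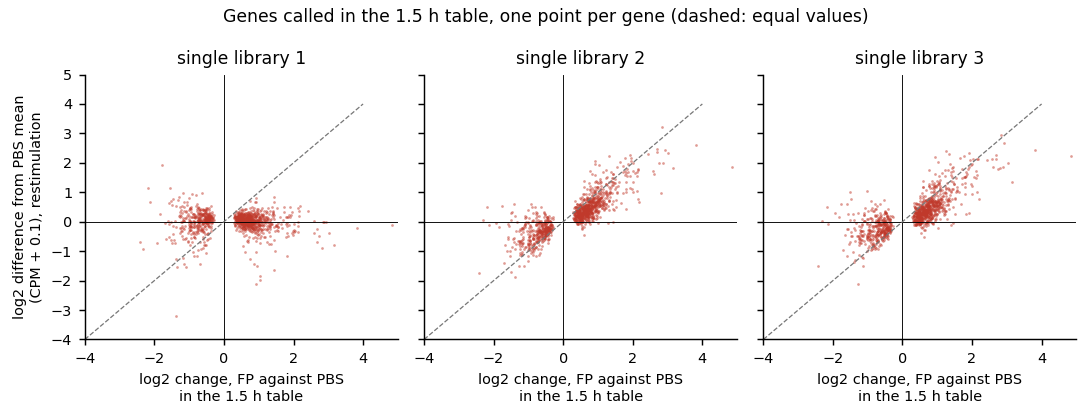
Each point is 1 of the 1108 genes called in the 1.5 h table: its log2 change there (x axis) against its log2 difference from the PBS mean in 1 single library (y axis, CPM + 0.1). The cloud is flat for single 1 (r = -0.0376) and slopes upward for single 2 and 3 (r = 0.839 and 0.777), below the dashed line of equal values for the most raised genes.

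The largest responders of the 1.5 h table showed the same split. The 10 genes named from that table as most raised were Lif, Kcnj15, Kcnk5, Lta, Myb, Hbegf, Trib3, Socs2, Lrrc32 and Dna2. In all 10, single 2 and 3 were above every PBS library, against 16% of all genes. Single 1 was below the PBS range in 5 (19.3% of all genes), within it in 4 (57.5% of all genes) and above it in Trib3 alone (23.2% of all genes). Hbegf, an EGF family growth factor, had 1.49, 1.13 and 1.44 CPM in PBS and 0.804, 7.40 and 6.25 CPM in single 1 to 3, and in the 1.5 h table it went from a mean of 1.63 to 10.6 CPM. Kcnk5, a potassium channel, had 6.57, 3.8 and 6.54 CPM in PBS and 5.41, 22.1 and 20 CPM in single FP.

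The 6 most lowered genes of the 1.5 h table were less uniform. Arl5c, a small GTPase of the ARF family, had 68.6, 55.5 and 66.5 CPM in PBS and 61.5, 23.9 and 32.5 CPM in single 1 to 3. Bbc3, which encodes the death protein PUMA, had 13.3, 13 and 16.7 CPM in PBS and 23.6, 7.05 and 8.81 CPM in single FP, so single 1 was above PBS and the other pair below. Gramd3 was split in the same way, with single 1 at 102 CPM and PBS at 60.5 to 69.2 CPM. Pik3ip1, an inhibitor of PI3 kinase, stood at 181 CPM in single 1, above PBS at 76.1 to 91.1 CPM, with 74.2 and 97.5 CPM in single 2 and 3. Ston1, an endocytosis adaptor, was above all PBS libraries in every single library, at 71.8, 27.9 and 28.6 CPM against 13.9 to 23.7 CPM. Il7r, the IL-7 receptor, ranged from 107 to 272 CPM within PBS, and all 3 single libraries lay inside that range.

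The test of the difference between the FP effect here and in the 1.5 h table, with each table against its own PBS libraries, called 0 of 16931 genes (0%) at an adjusted p below 0.01, with 1554 genes at an unadjusted p below 0.05. DESeq2 called 45. At an adjusted p below 0.05 edgeR called 22, among them Ston1 (difference 2.91, SE 0.46, adjusted p = 0.0286) and Pik3ip1 (difference 2.07, SE 0.41, adjusted p = 0.0445), in both of which single 1 was the highest library. Without single 1 edgeR again called 0 genes at 0.01, and the Pik3ip1 difference was 1.61 (SE 0.37, adjusted p = 0.153). With all libraries the difference for Cish and Il2ra was -0.48 (SE 0.35, adjusted p = 0.774) and -0.62 (SE 0.32, adjusted p = 0.595), so these data neither separate the 2 experiments nor show them to be equal.

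Of the lists examined, ribosome biogenesis had the largest share of genes above PBS in single 2 and 3. None of its 38 measured genes was called in either fit, yet single 2 and 3 were both above all PBS libraries in 36 of them (94.7%, against 16% of all genes) and single 1 was within the PBS range in 28 (73.7%, against 57.5%). All 3 single libraries were above PBS in 9 (23.7%, against 6.51%). The list's median log2 difference from PBS was 0.0321, 0.497 and 0.429 in single 1 to 3, against -0.152 to 0.108 in PBS. Gnl3, which encodes the nucleolar protein nucleostemin, had 36.2, 35.4 and 33.6 CPM in PBS and 33.9, 72.8 and 69.8 CPM in single FP. Tsr1, an assembly factor of the small subunit, had 40, 36.1 and 41.5 CPM in PBS and 39.5, 68.1 and 66.4 CPM in single FP (adjusted p = 0.311 with all libraries and 0.0266 without single 1).

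No cell cycle gene passed the test, but the list's median was below PBS in all 3 single libraries. Of 41 measured genes, 17 lay below all PBS libraries in all 3 single libraries (41.5%, against 8.38% of all genes), single 1 was within the PBS range in 19 (46.3%, against 57.5%), and the list's median difference from PBS was -0.508, -0.511 and -0.566 in single 1 to 3, with -0.248, 0.028 and 0.299 in PBS. Birc5, which encodes survivin, had 5.95, 4.34 and 7.62 CPM in PBS and 2.81, 2.35 and 2.91 CPM in single FP (log2 change -1.15, adjusted p = 0.081). Ccnb2, a mitotic cyclin, had 5.42, 5 and 8.04 CPM in PBS and 3.13, 2.84 and 2.85 CPM in single FP (log2 change -1.06, adjusted p = 0.081). In repeated FP 1 to 4 the list's median difference from the same PBS libraries was -0.414, -0.423, -0.686 and -0.488. In the 1.5 h table the median change of this list was -0.0098. Mki67 and Cenpf, genes of dividing cells, spread from 24.6 to 97.9 and from 1.86 to 9.71 CPM within PBS alone.

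In the Treg core list none of 19 genes was called with all libraries. Without single 1 the 1 gene called was Il2ra, where 0.15% of all genes were called higher. Single 1 was set apart with its Il2ra value known, so that call is a description only. Foxp3, the transcription factor that defines Tregs, had 536, 521 and 605 CPM in PBS and 568, 852 and 804 CPM in single FP (log2 change 0.42, SE 0.18, adjusted p = 0.524), again with single 1 inside the PBS range, and Gpr83, a receptor typical of Tregs, had 162, 129 and 171 CPM in PBS and 209, 310 and 291 CPM in single FP (adjusted p = 0.0993). Ikzf2, Ctla4 and Nrp1 showed no called change. In the effector Treg list none of 27 genes was called, and single 2 and 3 were below all PBS libraries in 14 of them (51.9%, against 17.5% of all genes). Klrg1, a marker of terminal effector cells, had 26.6, 31.1 and 46.1 CPM in PBS and 24.1, 19.1 and 17.6 CPM in single FP (log2 change -0.77, adjusted p = 0.219).

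Resting T cell genes gave none of 20 called in either fit, with single 2 and 3 below PBS in 10 (50%, against 17.5% of all genes) and single 1 inside the PBS range in 12 (60%, against 57.5%). Bcl6, a repressor that IL-2 signalling is known to lower, had 46.5, 54.9 and 70.7 CPM in PBS and 64.8, 19.9 and 13 CPM in single FP. Tcf7, which encodes TCF1, had 524, 445 and 575 CPM in PBS and 581, 285 and 305 CPM in single FP. Id3, an inhibitor of E proteins, was below PBS in all 3 single libraries, at 43.4, 25.9 and 28.7 CPM against 59.5 to 84.2 CPM (log2 change -1.11, adjusted p = 0.0998). The glycolysis, cholesterol synthesis, oxidative phosphorylation and interferon lists held no called gene in either fit, with medians between -0.114 and 0.0168 over all libraries. Of 18 measured amino acid supply genes, 1 was called higher without single 1, where 0.15% of all genes were. The list's median log2 change without single 1 was 0.000909. Single 2 and 3 were above all PBS libraries in 22.2% of the list and below them in 22.2% (16% and 17.5% of all genes). The called gene was Trib3, a pseudokinase induced by ATF4, at 2.17, 1.74 and 1.93 CPM in PBS and 2.53, 9.84 and 8.68 CPM in single FP.

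**Figure D4:**
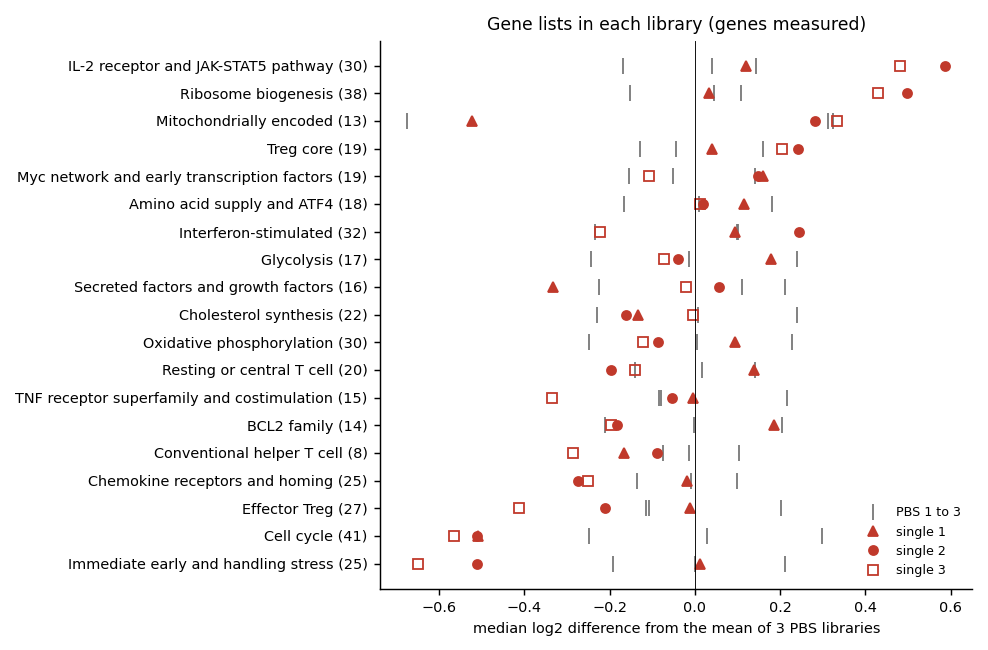
Median log2 difference from the mean of the 3 PBS libraries (x axis) over each gene list (y axis, genes measured in parentheses), with grey ticks for PBS 1 to 3 and red symbols for single 1 to 3. Single 1 lies with PBS on the IL-2 pathway and ribosome biogenesis lists and with single 2 and 3 on the cell cycle list.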

How the data were processed

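Total RNA of sorted splenic Tregs was depleted of ribosomal RNA before library preparation, per the labels' protocols. The deposited tables hold raw read counts per Ensembl gene: per the submitters' processing notes and the series' design text, reads were aligned with STAR 2.5.0 to GRCm38 and counted with featureCounts 1.5.0 on GENCODE M13. Genes in the deposited count tables exceed 0.5 CPM in at least 3 columns. CPM here are counts scaled by TMM library sizes. Genes were tested with edgeR 4.0.16 (quasi-likelihood F test, TMM, filterByExpr, Benjamini-Hochberg, threshold 0.01, all 10 restimulation libraries in 1 fit, R 4.3.3), with DESeq2 1.42.0, RLE scaling, no filter, a threshold of 0.05, 2 groups only, a replicate block, voom sample weights (limma 3.58.1) and left-out libraries as alternatives, and a GC correction (loess, span 0.5) added after seeing the data. The fits were tested on simulated data. Library medians used log2 CPM with a prior count of 2. Named genes were those called in each fit whose groups were fully separated and averaged 5 CPM or more, ranked by size of change (up to 12 each way over all libraries, 8 without single 1, 10 higher and 6 lower in the 1.5 h table), a panel of IL-2 and Treg genes, up to 4 genes of smallest p per list and called differences between tables. Members, lists and the left-out library were chosen with earlier results of these data known, and the heat shock and glucocorticoid lists after the values were seen. The labels name mice but do not say that each library is 1 mouse, so p-values measure the spread between these samples. Gene coordinates are from GENCODE M21 on GRCm38, and promoters from RefSeq, which held 93 of 133 named genes.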

Additional observations from a re-analysis of the deposited data

How the results depend on the processing

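The biological coefficient of variation between replicates was 27% in the restimulation table. The count for single FP against PBS was 2 and became 143 (25 higher, 118 lower) with DESeq2, 60 at an adjusted p below 0.05, 933 (299 higher, 634 lower) with voom sample weights, 13 (2 higher, 11 lower) with the GC correction, 2 with GC correction and replicate block, and 1 to 31 without 1 library, 31 being without single 1 and 1 without single 2 or single 3. Without single 1 the 31 became 262 with DESeq2, 152 at 0.05, 0 with only the 2 groups compared, 154 (114 higher, 40 lower; 27 of the 31 among them) with the GC correction, and 0 to 2 without 1 further library. The 1.5 h table's 1110 became 1688 with DESeq2, 2209 at 0.05 and 689 to 1099 without 1 library. The 0 differences between tables became 45 with DESeq2 and 22 at 0.05. Replicate numbers did not pair the samples: deviations of same-numbered PBS and single libraries correlated at -0.634, 0.516 and -0.767. Those of PBS 3 and single 1 correlated at 0.77. With a replicate block the counts were 0 for single FP against PBS, 0 without single 1 and 1 for the difference between tables. Among genes at least 2-fold changed in the 1.5 h table the medians were 1.02 and 1.00 (higher, single 2 and 3) and 0.0105, -0.598 and -0.416 (lower, single 1 to 3). Only a part of the named genes was followed under the 18 alternatives, and Hspa1b, Birc5, Ccnb2 and Id3 were not among them. Of the values of the genes followed, 712 kept direction and side of the threshold, 43 newly passed, 4 no longer passed (Fos under the block and without single 2 or 3, Fosb under the block) and 15 turned sign, none of a called gene. Gramd3 was -0.0184 with the block, -0.277 with voom weights, -0.00711 with the GC correction, -0.0695 with GC correction and block, and -0.381 (without single 1) to 0.245 without 1 library. Without 1 library Bbc3 ranged from -0.856 to 0.163, Ikzf2 from -0.147 to 0.34, Il2rg from -0.178 to 0.0277 and Gzmb from -0.306 to 0.235, and Gzmb was -0.025 with the GC correction. The causes were not tested.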

Other observations

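Single library 1 stood above the other single libraries and all PBS libraries in several genes that respond to glucocorticoids, in a list put together after the values were seen. Tsc22d3, which encodes the glucocorticoid-induced leucine zipper, had 107, 143 and 170 CPM in PBS and 408, 126 and 164 CPM in single 1 to 3. Fkbp5, a co-chaperone of the glucocorticoid receptor, had 72.7, 108 and 129 CPM in PBS and 256, 136 and 121 CPM in single FP. Ddit4, an inhibitor of mTORC1, had 83.1, 93.2 and 125 CPM in PBS and 275, 78.8 and 94.4 CPM in single FP. In these 3 genes single 2 and 3 were within or close to the PBS range. Per1, a clock gene, had 69.7, 60.5 and 70.7 CPM in PBS and 116, 56.8 and 62.4 CPM in single FP. Klf9, by contrast, was above PBS in all 3 single libraries. Single 1 was above all PBS libraries in 47.4% of the 19 measured genes of the list, against 23.2% of all genes. The list's median log2 difference from PBS was 0.183 in single 1 and 0.126 in PBS 3. With 1 library there is no test, and none of the 19 genes was called over all libraries. Without single 1, Klf9 was called higher (edgeR adjusted p = 0.0043), where 0.15% of all genes were.

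Of 14 measured myeloid markers none passed, 3 lay above all PBS libraries in all 3 single libraries (21.4%, against 6.51% of all genes) and none below. Vcam1, an adhesion molecule of splenic macrophages, had 56.5, 35.8 and 38 CPM in PBS and 85.1, 77.5 and 91.9 CPM in single FP (edgeR log2 change 0.97, adjusted p = 0.385), and Cd14 had 1.27, 0.834 and 1.21 CPM in PBS and 3.91, 3.02 and 1.86 CPM in single FP (log2 change 1.41, adjusted p = 0.158). Csf1r had 57, 26.4 and 31.2 CPM in PBS and 54.5, 49.2 and 51.7 CPM in single FP, so its groups overlapped. Lyz2, which encodes lysozyme, had 8.18, 6.62 and 14.1 CPM in PBS and 6.90, 4.29 and 6.18 CPM in single FP, lower in value.

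With the GC correction, added after the data were seen, Klf9 and Vars, which encodes valyl-tRNA synthetase, were called higher over all 3 single libraries. Vars had 149, 147 and 173 CPM in PBS and 251, 235 and 234 CPM in single FP (log2 change 0.66, adjusted p = 0.00827 with edgeR).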
